A study of Mus musculus with 2 samples.

Results

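The clustered protocadherin genes of the mouse lie side by side on chromosome 18, and the interval that holds them, 37.05 to 38.03 Mb on mouse build mm9, was examined for CtBP2 occupancy. It was cut into 1960 bins of 500 bp out of 5283814 in the genome, of which 640 belonged to the alpha cluster (37.05 to 37.37 Mb), 540 to the beta cluster (37.40 to 37.67 Mb) and 460 to the gamma cluster (37.80 to 38.03 Mb). The remaining bins lay in the 30 kb between alpha and beta and the 130 kb between beta and gamma. The members were chosen by position alone, with approximate cluster limits. In the RefSeq table of assembly GRCm38.p6, used for names only, the clusters hold 58 genes, of which 14 are alpha (Pcdha1 to Pcdha12, then Pcdhac1 and Pcdhac2), 22 are beta (Pcdhb1 to Pcdhb22) and 22 are gamma, 1 of the latter (Pcdhgb8) a pseudogene. Positions below are 1-based on mm9, and places are not assigned to single genes because no gene annotation of that build was used here.

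The libraries were 1 CtBP2 ChIP library and 1 input library from MIN6 cells, a mouse insulinoma line that stands in for pancreatic beta cells, grown in ordinary culture. CtBP2 is a co-repressor that senses NAD(H) and is brought to DNA by partner proteins. Input is sheared chromatin that was not precipitated. Each group had 1 library, so differences had no replicate check, and tests compared the reads of these libraries rather than conditions. A control IgG precipitation named in the labels' protocols was not analysed here. Protocadherin expression was not measured.

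Clustered protocadherins are cadherin-family adhesion proteins best known from neurons, where each cell expresses its own mixture and uses it to tell self from non-self. In the alpha and gamma clusters each variable exon has its own promoter and is spliced to shared constant exons, whereas beta genes are single-exon genes. Most of these promoters carry a conserved sequence element bound by the insulator protein CTCF, and many alpha variable exons hold a further CTCF site downstream of the promoter. The C-type genes at the ends of the alpha and gamma clusters (Pcdhac1, Pcdhac2, Pcdhgc3, Pcdhgc4 and Pcdhgc5) are less variably expressed between neurons.

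The ChIP library held 8474671 distinct reads and the input library 12471942, counting 1 read per chromosome, 5 prime end and strand. Input was multiplied by 0.6795, the ratio of these totals, wherever a ratio of ChIP to input is given, so that the genome as a whole has a ratio of 1. The interval held 4001 ChIP and 7230 input reads, or 4.08 ChIP reads per kb (95% Poisson interval 3.96 to 4.21) and 7.38 input reads per kb (7.21 to 7.55), against 3.21 and 4.72 over the genome. Its ratio was 0.814 (exact interval 0.783 to 0.847). Both libraries were therefore deeper here than in the genome at large, and input more so. The neighbouring sequence was also deeper than the genome. The 1 Mb before and the 1 Mb after held 8.35 and 6.74 ChIP reads per kb, and 6.31 and 5.59 input reads per kb. The Poisson and exact intervals given here cover counting error only, because amplified reads without molecular identifiers are not independent molecules.

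The clusters differed in their ChIP reads. The alpha cluster held 1743 ChIP and 2777 input reads, a ratio of 0.924 (0.870 to 0.981). The gamma cluster held 1095 and 1505, a ratio of 1.07 (0.990 to 1.16). The beta cluster held 675 and 1692, a ratio of 0.587 (0.536 to 0.642), and its interval did not overlap those of alpha and gamma. The stretch between alpha and beta held only 49 ChIP reads against 236 input reads, a ratio of 0.306 (0.220 to 0.417), and that between beta and gamma 439 against 1020 (0.633, 0.565 to 0.709). With input scaled instead on background bins of low ChIP count, the ratios of alpha, beta and gamma were 2.88, 1.83 and 3.34. This scaling changes every ratio by the same factor, so their order could not change. Without called bins and the bins next to them the ratio of alpha was 0.730 (0.682 to 0.781), that of gamma 0.6002 (0.539 to 0.667) and that of beta 0.555 (0.506 to 0.609). Gamma then lay below alpha, and the intervals of gamma and beta overlapped. The bins left out were called for a high ratio in these same reads, 10 in gamma and 5 in alpha, so such a fall was built in. In bins more than 500 bp from any site of the 200 bp call described below, the order differed. There the ratios were 0.315 in alpha, 0.345 in gamma and 0.404 in beta. Reads were missing from both libraries in 11.4% of alpha, 17.4% of beta and 17.4% of gamma bins, against 23.8% of bins in the genome. Protocadherin exons resemble each other in sequence, and no source used here states what the aligner did with reads that match more than 1 copy. The part of such reads in these numbers was not tested.

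**Figure D1:**
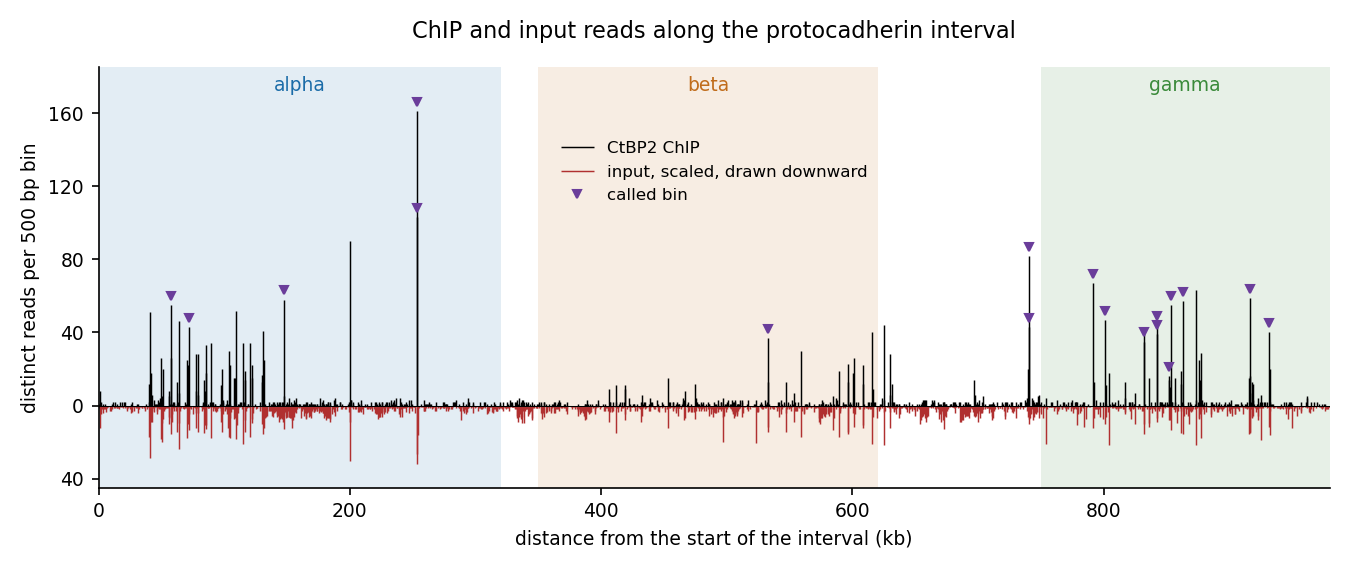
Distinct reads per 500 bp bin along the interval, against the distance from its start in kb. Black lines upward are CtBP2 ChIP and red lines downward are input multiplied by the ratio of total reads, shading marks the 3 clusters and triangles mark the 18 called bins. ChIP reads stood in narrow peaks in both outer clusters, up to 161 reads in an alpha bin, while the beta cluster reached 40.

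Bins in which ChIP exceeded input from the same bin were few. Of the 1676 bins with a read in either library, 18 were called (ratio of at least 3 with 0.5 reads added to each count and an adjusted p of at most 0.01, one-sided exact binomial test, Benjamini-Hochberg over all bins of the genome). This was 1.07% of them, against 0.698% of bins called in the genome, and below the 1.70% and 1.58% of the 1 Mb before and after the interval. The gamma cluster had 10 called bins (2.63% of its bins with reads), the alpha cluster 5 (0.882%), the beta cluster 1 (0.224%) and the stretch between beta and gamma 2 (0.881%). No bin of the interval was called lower in ChIP, against 0.00775% of bins in the genome. With so small a share in the genome, finding none among 1676 bins says little. The background-bin scaling described above lowers the expected ChIP count, so it could add none (0.000397% in the genome). The called bins of gamma were thus more frequent than the genome's, those of alpha near it and that of beta below it. These shares depended on the scaling of input. With the background-bin scaling 75 bins were called, 35 in alpha (6.17%), 8 in beta (1.79%) and 25 in gamma (6.58%), against 1.23% in the genome.

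Called bins were joined into 15 regions when at most 1 uncalled bin lay between them. The deepest was in the alpha cluster at 37303001 to 37304000, a 1000 bp region with 264 ChIP reads (95% Poisson interval 233 to 298) and 86 input reads (68.8 to 106), a ratio of 4.52 (3.53 to 5.83). It stood alone, since ChIP held 1.15 reads per kb over 10 kb on each side. The other alpha regions were 500 bp wide. That at 37197501 to 37198000 held 58 ChIP and 19 input reads (ratio 4.49, 2.64 to 7.99), that at 37107001 to 37107500 held 55 and 23 (3.52, 2.13 to 6.0) and that at 37121501 to 37122000 held 43 and 20 (3.16, 1.82 to 5.68). The single beta region, at 37583001 to 37583500, held 37 ChIP and 17 input reads (3.20, 1.76 to 6.07).

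The region between the beta and gamma clusters had the widest margin over input of those with more than 1 input read. It lay at 37790001 to 37791000, outside the approximate limits of either cluster, and held 125 ChIP reads (104 to 149) against 26 input reads, a ratio of 7.08 (4.61 to 11.3).

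The gamma cluster held 9 regions, more than any other stretch of the interval. The region with the most reads, at 37892001 to 37893000, held 83 ChIP and 23 input reads (ratio 5.31, 3.31 to 8.83). That at 37841501 to 37842000, the first of the cluster, held 67 and 18 (5.48, 3.22 to 9.80), and that at 37966001 to 37966500 held 59 and 21 (4.14, 2.48 to 7.16). The intervals of these ratios overlapped. The next were at 37913001 to 37913500 with 57 ChIP and 23 input reads (3.65), at 37903501 to 37904000 with 55 and 20 (4.05), at 37851001 to 37851500 with 47 and 15 (4.61), at 37981501 to 37982000 with 40 and 17 (3.46) and at 37882001 to 37882500 with 35 and 15 (3.43). The highest ratio of the interval, 23.6, was at 37901501 to 37902000 and rested on 16 ChIP reads and 1 input read, with an interval of 3.66 to 987. That bin took in only part of a peak whose summit lay on its edge, at 37902000, where 200 bp held 30 ChIP and 9 input reads.

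The regions were narrower and shallower than those of the genome. Their median was 500 bp in width, 110 ChIP reads per kb (quartiles 81.5 and 117) and a ratio of 4.03 (3.40 to 4.83), whereas the 16204 regions called in the same way in the genome had a median of 1000 bp, 270 ChIP reads per kb (110 to 482) and a ratio of 6.19 (4.43 to 8.61). The limit of 3 passed close to several bins. In 4 bins the test was passed but the ratio was below 3, among them the bin at 37249501 to 37250000 of the alpha cluster, with 90 ChIP and 45 input reads (ratio 2.91), and that at 37923001 to 37923500 of the gamma cluster, with 63 and 32 (2.86). The bin with the most input reads of the beta cluster, at 37665501 to 37666000, was also its bin with the most ChIP reads (40 ChIP, 31 input, 1.88), and the bin with the most input of gamma, at 37854001 to 37854500, held 18 ChIP and 32 input reads (0.832).

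**Figure D2:**
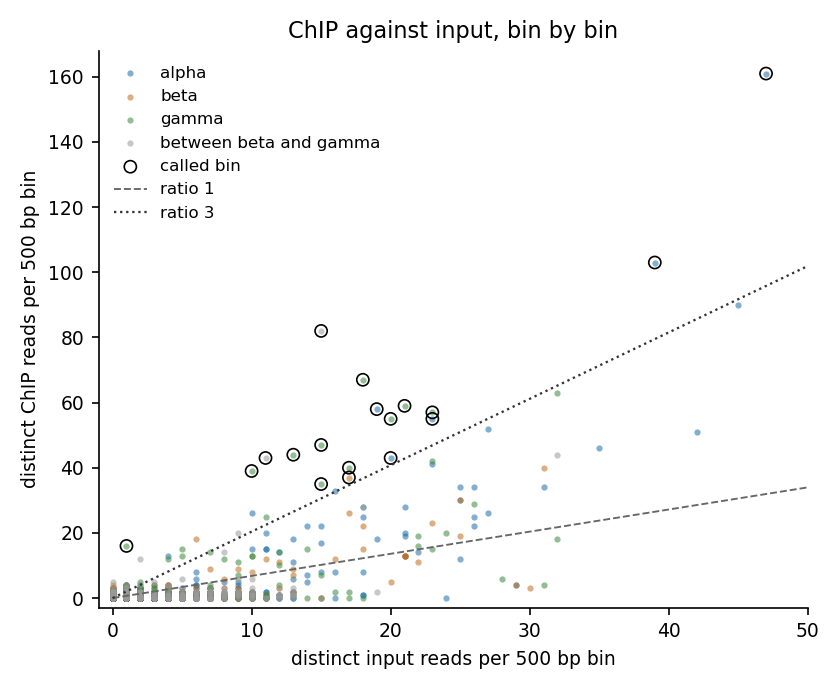
Distinct ChIP reads against distinct input reads in each 500 bp bin, with 1 point per bin coloured by cluster, circles on the called bins and lines at ratios of 1 and 3 after scaling. Bins with many ChIP reads also held many input reads, and 2 bins of the alpha cluster, both in the region with 264 ChIP reads, stood above the others.

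Against their surroundings, rather than input of the same bin, many more places stood out. Sliding windows of 200 bp, placed every 50 bp, were set against the genome mean or scaled input over 1, 5 or 10 kb, whichever was largest (Poisson test, adjusted p of at most 0.01, at least 3 times the expected count), and windows within 200 bp were joined into sites. This gave 60 sites in the interval, 28 in alpha, 9 in beta, 18 in gamma and 5 between beta and gamma. Site summits fell in 3.58% of the interval's bins with a read, against 0.73% in the genome. The number per Mb was 87.5 in alpha, 78.3 in gamma and 33.3 in beta, against 11.1 in the genome and 31 and 25 in the 1 Mb before and after the interval. The order of alpha and gamma depended on the setting. Leaving out windows of high input (at least 10 times the genome mean) gave 13 alpha and 15 gamma sites, 40.6 and 65.2 per Mb, and all deposited reads gave 17 and 16, 53.1 and 69.6 per Mb, whereas beta was the lowest under each setting run. Only 15 of the 60 sites overlapped a called 500 bp bin, and 36 sites were called in all when windows of high input were left out.

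The sites of the protocadherin clusters were numerous and low. Their median ChIP density was 82.7 reads per kb (quartiles 67.9 and 105), 14 of 60 were above the genome's median of 108 (65 to 370), and 10 of 60 (16.7%) reached 10-fold over the expected count, against 48.8% of the genome's 29388 sites. The sites of the neighbouring megabases were deeper, with medians of 178 reads per kb in the 31 sites before and 218 in the 25 sites after the interval. Widths were similar, with a median of 400 bp in the clusters and 500 bp in the genome. Whole megabases showed the same contrast, since the 1 Mb before the interval held 8350 ChIP reads and the 1 Mb after it 6737, ratios of 1.95 and 1.77, from fewer sites. The sites were called in these reads, so their depths are a description.

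**Figure D3:**
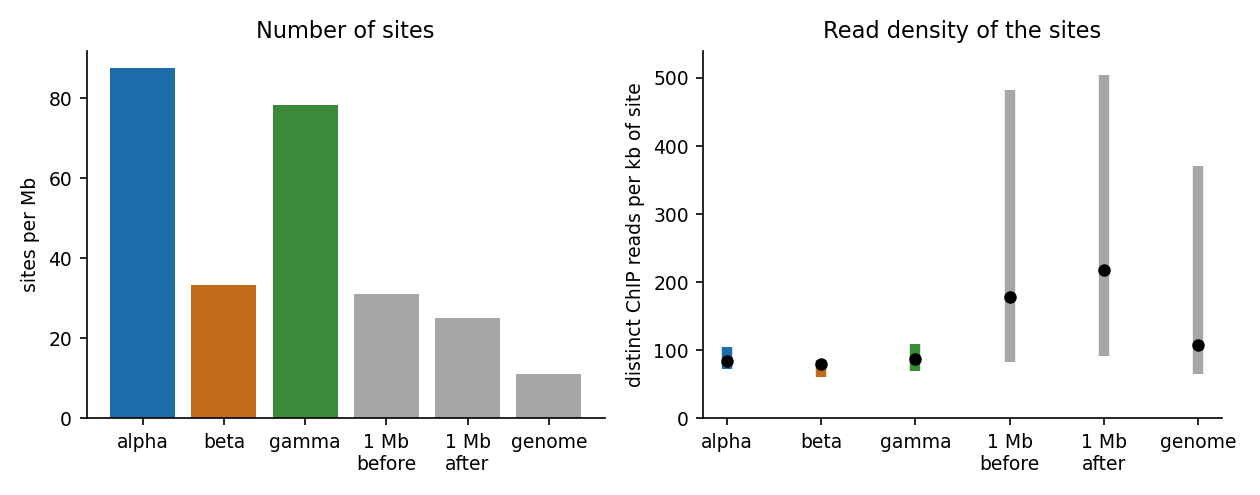
Left, number of sites per Mb in each cluster, in the 1 Mb on each side and in the genome. Right, distinct ChIP reads per kb of site, with the median as a point and the quartiles as a bar. Alpha and gamma had 87.5 and 78.3 sites per Mb, and the medians of all 3 clusters lay between 80 and 86.7 reads per kb.

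Compared with input at the very same 200 bp, scaled by total reads, the summits spread from a ratio near 1 to far above it. A ratio of 1 is not the level between sites, since bins more than 500 bp from any site had a ratio of 0.341 over the interval. How many summits pass 1 therefore depends on the scaling of input. The ratio of ChIP to scaled input at the summit ran from 0.957 to 17.7 with a median of 3.25, its exact 95% interval lay above 1 at 46 sites, and at 14 sites it held 1. By cluster the medians were 2.84 in alpha, 4.12 in beta and 4.48 in gamma. The excess over the surroundings at the alpha sites was thus the one most closely matched by input, with an interval holding 1 at 9 of 28 sites, against 2 of 9 in beta and 3 of 18 in gamma. These differences between clusters were not tested.

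The alpha cluster showed a repeated arrangement of sites. From 37091151 to 37181950, 25 of its 28 sites lay within 91 kb, and 20 of them formed 10 pairs with summits at most 2 kb apart. The number of pairs fell to 3 when windows of high input were left out, 3 with unshifted 5 prime ends, 2 with all deposited reads and 6 at an adjusted p of 1e-05. In 8 pairs the distance was 1250 to 1400 bp, with a median of 1350 bp, and in the remaining pairs it was 650 and 700 bp. From the first summit of a pair to the first of the next the distance was 4200 to 12050 bp, with a median of 7300 bp. Over the genome 7.15% of neighbouring sites were at most 2 kb apart, against 37.0% in alpha, 29.4% in gamma and 0 of 8 neighbours in beta. These shares were not compared at equal density, since alpha and gamma held 87.5 and 78.3 sites per Mb and the genome 11.1. Whether unpaired sites at such a density would give similar shares was not tested. The pairs were chosen after the values were seen and are a description.

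Both places of each pair held reads of ChIP and of input, and either could be the higher. The pair at 37112600 and 37113950 held 13 and 38 ChIP reads in the 200 bp around its summits, and 20 and 18 input reads. The pair at 37120250 and 37121600 held 21 and 29 ChIP reads with 22 and 14 input reads. At 37127550 and 37128900 the ChIP reads were 31 and 28 and the input reads 16 and 12. The second place had more ChIP reads in the former pairs and the first in the last. At 37157850 and 37159150 ChIP held 14 and 33 reads and input 8 and 15. At 37165150 and 37166500 ChIP held 30 and 23 and input 25 and 13, and at 37170650 and 37172050 ChIP held 27 and 20 and input 23 and 10. In the pairs that begin at 37165150 and 37170650, ChIP and input were both higher at the first place. In the pair that begins at 37157850, both were higher at the second. The pairs at 37147150 and 37148400 (11 and 19 ChIP reads, 9 and 17 input reads) and at 37180050 and 37181400 (26 and 23, 12 and 12) completed the 8 wider pairs. Across these 8 the second place had more ChIP reads in 4 and more input reads in 2. Its ratio to input was higher in 6, with a median of 2.996 at second places and 1.78 at first places. In the narrow pairs, at 37135100 and 37135750 (29 and 15 ChIP reads, 11 and 15 input reads) and at 37153650 and 37154350 (23 and 21, 18 and 21), the ratio was higher at the first place. Over all 10 pairs the second place had the higher ratio in 6, with medians of 2.88 and 1.84.

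**Figure D4:**
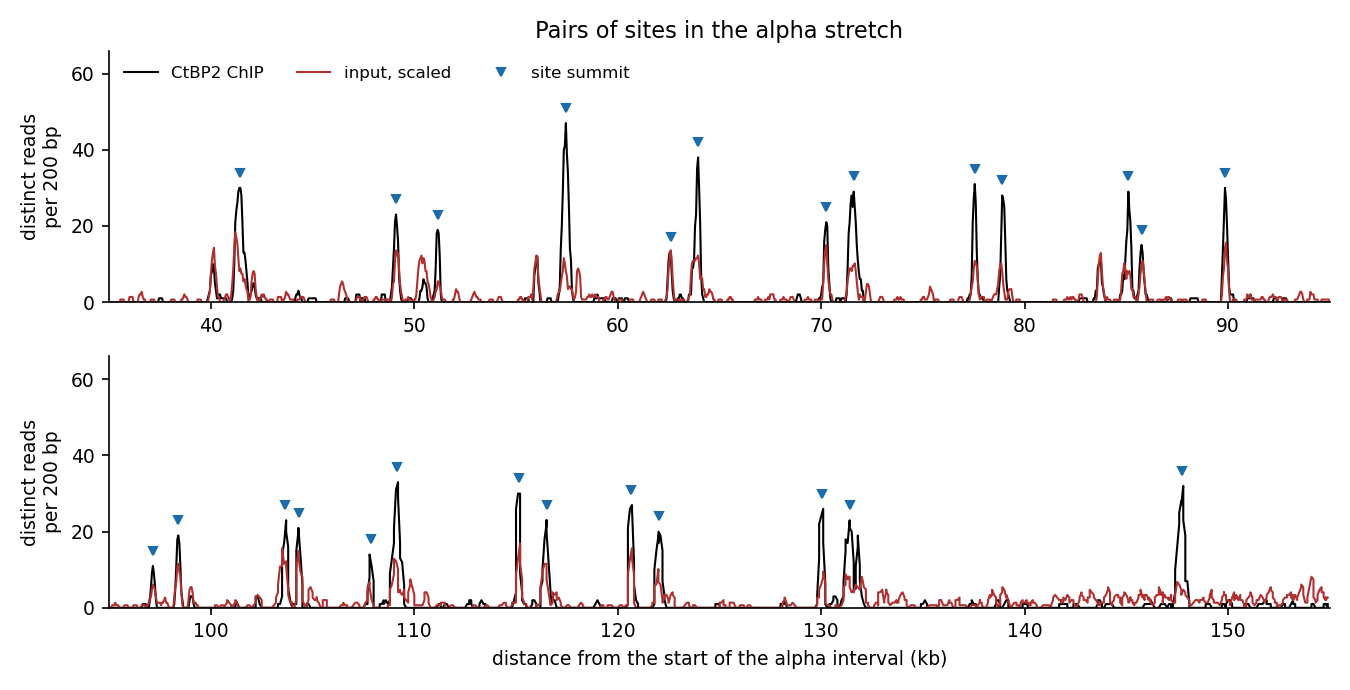
Distinct reads in sliding windows of 200 bp along the first part of the alpha cluster, against the distance from the start of the alpha interval in kb, in 2 panels. Black is CtBP2 ChIP, red is input multiplied by the ratio of total reads and triangles mark site summits. Of the 25 sites of the paired stretch, 16 stood in pairs 1250 to 1400 bp apart. Input rose at most sites and also at places without one.

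Outside that stretch the alpha cluster had 3 sites, far apart from each other. The first, at 37197401 to 37198000, held 32 ChIP and 7 input reads at its summit. The second, at 37249401 to 37249850, held 79 and 34 (ratio 3.42), an 11.4-fold excess over its surroundings, yet its bin missed the ratio of 3 given above. The last, at 37303101 to 37303950, had the highest summit of the interval, 100 ChIP reads against 16 input reads (9.20). Their summits were 51900 and 54000 bp apart, whereas neighbours in the paired stretch were at most 8000 bp apart. A further 10.8-fold site of the paired stretch, at 37107101 to 37107700 (47 ChIP and 12 input reads at the summit), had no partner within 2 kb.

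The beta cluster had fewer sites, with a lower fold over their surroundings and without pairs. Its 9 sites were spread from 37468851 to 37666050, a median of 23825 bp apart, and held 12 to 35 ChIP reads at the summit and 3 to 13 input reads, 3.798 to 7.36 times the expected count. The site with the most ChIP reads at its summit was the called one, at 37582901 to 37583300, with 35 ChIP and 12 input reads (6.78-fold over its surroundings). The site at 37650801 to 37651300 held 23 ChIP and 5 input reads (ratio 6.77), that at 37609001 to 37609400 held 22 and 7 (4.63), and that at 37658351 to 37658750 held 22 and 9 (3.60). No beta site reached 10-fold. None lay before 37468851, and 4 of the 9 lay from 37639201 on, near the end of the cluster interval. Another 3 sites lay just beyond the approximate beta limit, at 37674951 to 37675400 (28 ChIP and 18 input reads), 37679601 to 37680000 (14 and 8) and 37681401 to 37681700 (12 and 1), so the beta count depends on where that limit is drawn.

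The gamma sites were the strongest of the clusters over their surroundings, with a median of 8.29-fold, against 6.18 in alpha and 5.42 in beta. Between 37841501 and 37928100 there were 14 sites in 87 kb, and 4 more followed from 37965851 to 37982000. The highest fold of the interval, 17.0 (95% Poisson interval 11.5 to 24.2), was at 37901801 to 37902200, where the summit held 30 ChIP and 9 input reads against 1.77 expected. The site at 37892201 to 37892850 followed with 11.8-fold (37 ChIP and 12 input reads), and those at 37906901 to 37907200 (10.5, from 15 and 5), 37841501 to 37842200 (10.2, from 39 and 7) and 37926251 to 37926700 (10.2, from 32 and 10) also passed 10-fold. The summit with the most reads, 57 ChIP against 14 input reads, was at 37965851 to 37966300 (9.12-fold). Close neighbours occurred here as well, with 5 distances of 2 kb or less, from 800 to 1650 bp. The site at 37854201 to 37854400 held 15 ChIP and 21 input reads, a ratio of 1.05 (0.504 to 2.14) with input scaled by total reads. Gamma bins more than 500 bp from any site had a ratio of 0.345 with the same scaling.

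**Figure D5:**
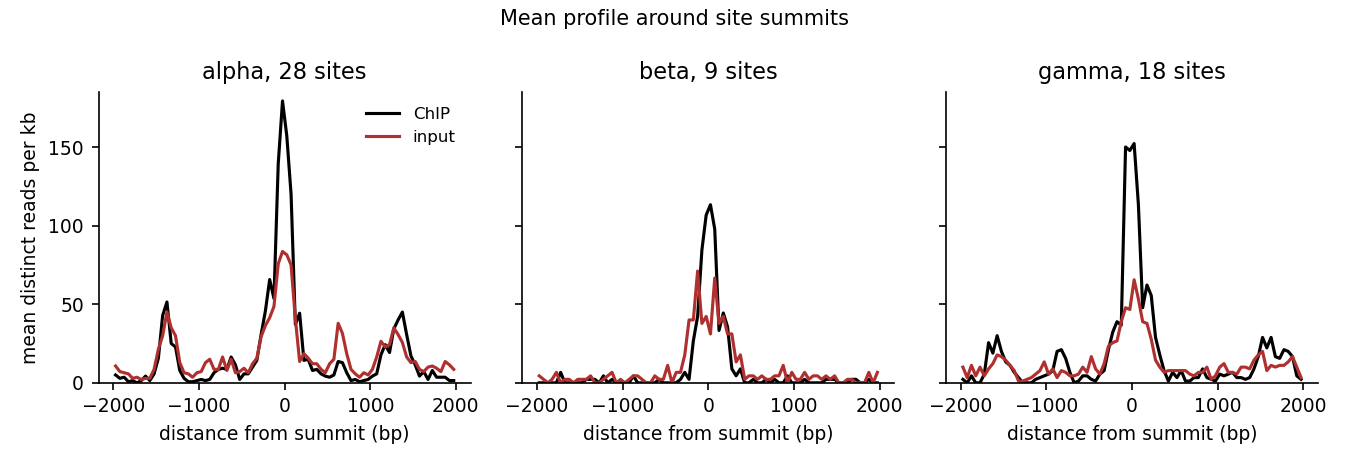
Mean distinct reads per kb in 50 bp steps against the distance from the site summit in bp, for the alpha, beta and gamma sites, with ChIP in black and unscaled input in red. In the step at -25 bp, ChIP stood at 179 and input at 83.6 reads per kb in alpha, at 107 and 42.2 in beta and at 148 and 46.7 in gamma. This step held the highest input only in alpha. Input was highest at -125 bp in beta (71.1, with ChIP at 42.2) and at 25 bp in gamma (65.6, with ChIP at 152). The alpha and gamma profiles had side peaks on both sides in both libraries.

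Input alone was focal at most of the same places, as it was at most sites of the genome. Windows of 200 bp in which input exceeded input over the surrounding 10 kb, tested in the same way without ChIP, gave 99 input-enriched places in the interval, 101 per Mb, against 60 and 62 per Mb in the 1 Mb before and after and 30.2 per Mb in the genome, where their summits fell in 1.98% of bins with a read, against 5.91% here. There were 37 in alpha, 23 in beta, 33 in gamma and 6 between beta and gamma. Of the 60 CtBP2 sites, 52 (86.7%) overlapped one, against 80.9% of sites in the genome. In the 1 Mb before and after the interval the shares were higher, 90.3% of 31 sites and 96% of 25 sites. Within the interval an input-enriched place was overlapped by all 9 beta sites, 25 of 28 alpha sites, 16 of 18 gamma sites and 2 of 5 between beta and gamma. In the other direction, 26 of 37 input-enriched places of alpha, 16 of 33 of gamma and 9 of 23 of beta overlapped a CtBP2 site. Each cluster thus had places of raised input at which ChIP was not called. Of the 11 input-enriched places of alpha without a CtBP2 site, those at 37089901 to 37090350 (12 ChIP and 27 input reads), 37105801 to 37106150 (12 and 22) and 37133551 to 37133900 (14 and 21) held ChIP reads at ratios of 0.663, 0.809 and 0.982, while that at 37107901 to 37108200 held 0 ChIP and 14 input reads. These examples were chosen after their values were seen. The spacing of alpha was also present in input alone, where 11 of 36 neighbouring distances were between 1 and 1.5 kb, against 0 of 22 in beta and 3 of 32 in gamma.

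Between the sites there was little ChIP. In bins more than 500 bp from any site, ChIP held 1.38 reads per kb over the interval and input 5.94, against 1.12 and 4.19 in such bins of the genome, ratios of 0.341 and 0.394. Bins at or near sites made up 10.9% of the interval and held 69.9% of its ChIP and 28.2% of its input reads. In the genome such bins made up 2.30% and held 65.9% of ChIP and 13.2% of input reads. Their share of ChIP reads was 87.2% in the 1 Mb before the interval and 82.9% in the 1 Mb after it. The share of ChIP reads near sites was 79.3% in both alpha and gamma and 42.2% in beta. Away from sites the ChIP density was 1.54 reads per kb in beta, 1.32 in alpha and 1.15 in gamma. The sites were called in these same reads, so this division of the reads is a description. Bins away from sites also took in places that were not called, such as 37646201 to 37646900 in beta, with 34 ChIP and 43 input reads. ChIP reads were repeated less here than elsewhere, with 1.60 deposited reads per distinct position in the interval, 2.55 and 2.63 in the neighbouring megabases and 2.21 on chromosome 18.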

How the data were processed

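CtBP2 ChIP and input DNA of MIN6 cells were sequenced as 1 library each. The authors deposited aligned reads, 1 line per read, as positions on mm9 and with no peaks. The deposited count column is 1 and the deposited score column 0 on every line, so read counts are raw and no mapping quality is given. Reads were 33 to 38 bp long. The submitters' processing notes name BWA, SAMtools 0.1.19 and bedtools 2.17.0, without settings. The ChIP file held 34890624 reads and the input file 20896067.

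Reads on 21 nuclear chromosomes were kept once per position and strand (24.3% of ChIP and 59.9% of input reads) and moved by 110 bp, from a strand cross-correlation maximum at 220 bp in ChIP. Calls were made with Python 3.11.15, NumPy 2.4.6 and SciPy 1.17.1 and checked on simulated data. The simulated input had no focal peaks, so that check does not cover sites at which input was raised. Bins used input of the same bin (4026144 tested), and sites used input of the surroundings (26834433 windows). Intervals are 95% exact binomial for ratios and exact Poisson for counts. The alternatives were all deposited reads, background-bin scaling (0.218 ChIP reads per input read), stricter thresholds, a minimum of 10 reads, local input, unshifted reads, a moved grid and moved cluster limits. The members, lists and tests were chosen with earlier results of these data known. Regions were named by a rule that took the 8 with the most ChIP reads per cluster, all regions between clusters, the widest, that of the highest ratio and the bins of most input. The sites of the 200 bp call, and their pairs, were named after their values were seen. No sequence was used, and figures were drawn with matplotlib 3.10.9.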

Additional observations from a re-analysis of the deposited data

How the results depend on the processing

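No paired analysis was possible because ChIP and input had 1 library each, so that only 1 such pair exists. Changing the setting moved the 18 called bins of the interval (alpha 5, beta 1, gamma 10) and the 15 regions as follows. All deposited reads gave 7 bins (1, 0 and 5) in 6 regions, a fold of at least 5 gave 5 bins (0, 0 and 3) in 4 regions, and background-bin scaling gave 75 bins (35, 8 and 25) in 46 regions. An adjusted p of 1e-05 left 3 alpha bins, 0 beta bins and 9 regions, the moved grid 3 alpha bins, and unshifted ends 0 beta bins. Testing only bins with at least 10 reads, or using the local expected count, gave 2 beta bins. The 200 bp call gave 60 sites and, without windows of high input, 36.

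The 60 sites became 36 (alpha 13, beta 4) without windows of high input, and 17 alpha and 3 beta sites with all deposited reads. The 9 beta sites became 14 with background-bin scaling, 5 at a fold of at least 5 or with unshifted ends, and 16 with local input over 10 kb only. The 10 alpha pairs became 3 without windows of high input, 6 at an adjusted p of 1e-05, 3 with unshifted ends and 2 with all deposited reads. The settings of the 200 bp call were added after the data were seen.

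The ratios of alpha, beta and gamma were 0.535, 0.351 and 0.671 with all deposited reads and 2.88, 1.83 and 3.34 with background-bin scaling. The alpha ratio fell to 0.853 without its deepest bin and 0.730 without called bins and their neighbours, that of gamma to 0.6002 without the latter, and that of beta was then 0.555. The bins left out were chosen by their ChIP reads, so these falls were built in. Of the 15 regions, 9 stayed called at an adjusted p of 1e-05, 6 with all deposited reads, 4 at a fold of at least 5, 10 on the moved grid and 11 with unshifted ends. All 15 stayed called under the other alternatives (background-bin scaling, at least 10 reads and the local expected count). Background-bin scaling lowers the expected ChIP count in every bin, so it could not lose a region. The minimum of 10 reads leaves out only bins with fewer reads than any region held. Keeping the regions under these settings is therefore no check on them.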
